A study of Homo sapiens with 6 samples.

Results

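The cadherins and protocadherins measured in HuCCT1/CD90+ and HuCCT1/CD90− cells are described here gene by gene. Every gene of the deposited table whose symbol is CDH followed by a number, or PCDH followed by letters or numbers, was taken, which gave 90 of 20811 genes. The rule reads symbols only, although the family was picked with earlier results of these data known. They comprise 23 cadherins (5 classical type I, 13 type II and 5 others) and 67 protocadherins (13 non-clustered, 13 of the alpha cluster, 19 of the beta cluster and 22 of the gamma cluster). GENCODE lists 86 of them as protein coding and 4 as pseudogenes.

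HuCCT1 is an established human cell line from an intrahepatic cholangiocarcinoma, a cancer of the bile ducts inside the liver. HuCCT1/CD90+ (CD90+ below) received the human THY1-CMV-GFP lentivirus, which carries THY1, the gene of the surface glycoprotein CD90, whereas HuCCT1/CD90− (CD90− below) received Lenti-CMV-GFP-2A-Puro-Blank Lentivirus without THY1. Both lines thus went through viral transduction and both vectors name a GFP marker driven by the CMV promoter. RNA was measured in 3 libraries of each line by Ion AmpliSeq, a targeted assay with 1 amplicon per gene, and the values are RPM, the reads of a gene scaled to a common library total. The labels name 1 transduced line per vector and do not say that its libraries came from separate cultures, so the p-values measure the spread between these libraries, which may be technical. Libraries held 8587634 to 9327650 reads in HuCCT1/CD90+ and 9345680 to 10551516 reads in HuCCT1/CD90−. THY1 had 1 read over the 3 HuCCT1/CD90− libraries together, and its HuCCT1/CD90+ reads numbered 435, 445 and 680. A level of 3 reads, taken here as the floor of detection, lay between 0.284 and 0.349 RPM.

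Cadherins are membrane proteins that join neighbouring cells by binding, in the presence of calcium, to cadherins on the opposite cell. Classical type I and type II cadherins bind catenins inside the cell, which tie the contact to the actin cytoskeleton, and epithelia of the bile duct are held together mainly by E-cadherin. Protocadherins lack the catenin binding site; the alpha, beta and gamma protocadherins sit in tandem clusters on 1 chromosome, where each variable exon has its own promoter, and are best known from neurons.

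The promoters are shown first because the clustered genes are the largest group of members and because their sequences show how alike neighbouring members are. RefSeq promoter windows, the 250 bases before the first listed start of a gene in GRCh38.p14, were matched for 67 of the 90 members. Among those without an entry were CDH1, CDH3, CDH5, CDH6, CDH11 and PCDH10. The 10-letter word found in the most beta promoters was GGTGGCGCTG. Searched on both strands, it stood in 11 of 14 beta promoters (78.6%) and in 65 of all 27305 promoters (0.238%), and in no other member. It is shown in PCDHB2, which had the highest level of the beta cluster in CD90+, in PCDHB10, and in PCDHB15, the beta gene that fell. Each line gives a stretch 5′ to 3′ on the plus strand, with the word in capitals. PCDHB2 is chr5:141094530-141094589, PCDHB10 is chr5:141192285-141192344 and PCDHB15 is chr5:141245300-141245359.
PCDHB2: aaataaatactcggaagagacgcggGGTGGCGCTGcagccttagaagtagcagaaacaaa
PCDHB10: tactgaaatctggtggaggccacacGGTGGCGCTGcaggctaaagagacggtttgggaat
PCDHB15: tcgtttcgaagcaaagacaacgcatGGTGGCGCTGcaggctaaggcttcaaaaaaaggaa

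In the gamma cluster, PCDHGB6, PCDHGB7 and PCDHGC3 are shown because they include the gamma genes with the highest levels and the one that fell. Their windows share GCCGCNGTCGGCCA, the longest run common to these 3 with at most 1 letter free (N). On both strands it was present in no gamma promoter but these 3 of 19 and in no other of all 27305 promoters. Capitals mark it in chr5:141407913-141407976 (PCDHGB6), chr5:141417572-141417635 (PCDHGB7) and chr5:141475869-141475932 (PCDHGC3), all on the plus strand of GRCh38.p14. The stretches of PCDHGB6 and PCDHGB7 differ at few letters.
PCDHGB6: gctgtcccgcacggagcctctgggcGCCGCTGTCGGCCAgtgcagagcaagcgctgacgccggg
PCDHGB7: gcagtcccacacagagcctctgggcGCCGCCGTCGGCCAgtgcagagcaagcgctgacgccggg
PCDHGC3: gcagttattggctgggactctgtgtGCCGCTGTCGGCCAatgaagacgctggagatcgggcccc

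PCDH1, the only protocadherin that rose, is shown because its RefSeq window holds an E-box of the letters CAGGTG. The ZEB and SNAI repressors of epithelial genes bind this kind of site. On both strands CAGGTG was present in 7 of 67 member promoters (10.4%) and in 4781 of all 27305 (17.5%). The 7 also include PCDHGB6 and PCDH15, both lower in every CD90+ library. The rest, CDH4, PCDHB1, PCDHGA2 and PCDHGA11, were at the floor in both lines. The stretch is chr5:141869628-141869757 on the minus strand, ending at the base before the RefSeq start used here, with the E-box in capitals. GENCODE places PCDH1 at chr5:141853111-141879246 on the minus strand, so this stretch lies inside the gene and not before its outermost start.
PCDH1: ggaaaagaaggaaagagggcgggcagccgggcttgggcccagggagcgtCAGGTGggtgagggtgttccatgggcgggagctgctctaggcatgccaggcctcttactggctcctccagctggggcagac

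The first comparison asked which members differed between the lines. In CD90+, 4 members rose (CDH1, CDH3, CDH6 and PCDH1) and 8 fell (CDH5, CDH9, CDH11, CDH18, PCDH7, PCDH10, PCDHB15 and PCDHGB7). A member was called when limma on log2(RPM + 1) gave a fold change of 1.5 or more and a p of 0.05 or less after Benjamini-Hochberg adjustment across the 20811 genes. The 4 higher members were 4.44% of the 90, against 7.59% of all genes, and the 8 lower members were 8.89%, against 7.49% of all genes. Neither share stood far from that of all genes. However, 63.3% of the members and 32.3% of all genes stayed at or under 3 reads in every library. The shares are therefore not like for like and do not settle whether the family stood apart. The median log2 fold change was -0.042 over the members and 0 over all genes. With the replicate number as a block, 4 members were higher and 5 lower, while 5.24% of all genes were called higher and 4.86% lower. Median centring of the libraries gave 4 higher and 14 lower members (8.92% and 9.87% of all genes), and an offset of 5 in place of 1 RPM gave 4 and 5 (6% and 5.6% of all genes).

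Most members were weakly expressed. In both lines 57 of the 90 members (63.3%) stayed at or under 3 reads in every library, compared with 6713 of all genes (32.3%), and 23 members had no read at all. Of the 33 members above that floor, 12 were called and 21 were not. Of all 20811 genes, those at the floor included, 15.1% were called in either direction. The share called among all genes above the floor was not computed. Levels without overlap between the lines were found for 6 members that were higher (6.67%, against 17.3% of all genes) and 19 that were lower (21.1%, against 17.7%). The study's own thresholds, a fold change of 1.5 and an unadjusted p of 0.05, gave 4 higher and 13 lower members, where 10.1% of all genes were higher and 9.98% lower.

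**Figure D1:**
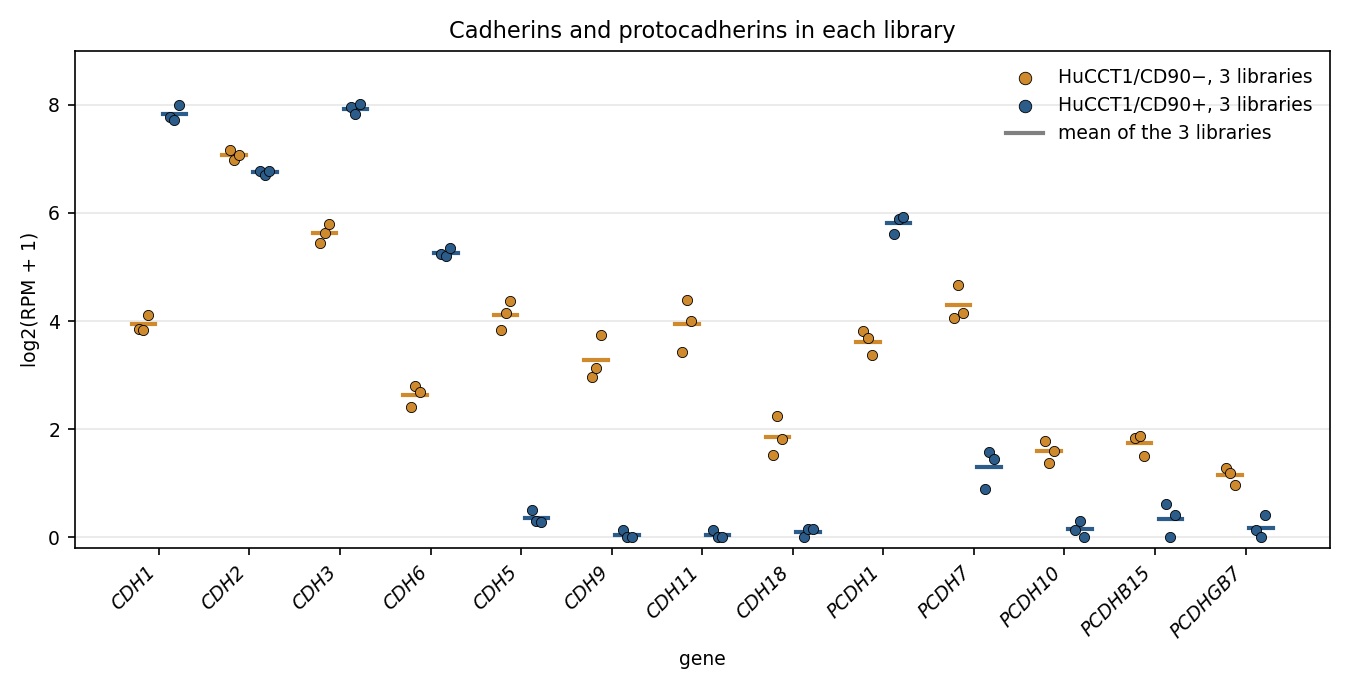
Levels of 13 named members in every library. The vertical axis is log2(RPM + 1), each point is 1 library (3 CD90− and 3 CD90+) and each bar the mean of a line. The libraries of the lines do not overlap for any of these genes; for CDH2, the nearest, they span 125 to 143 RPM in CD90− and 103 to 109 RPM in CD90+.

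Among the classical type I cadherins, which form the adherens junctions of epithelia and neural tissue, CDH1 and CDH3 rose and CDH2 changed little. CDH1 encodes E-cadherin, the main cadherin of epithelia. Its level was 13.6, 13.4 and 16.4 RPM in the CD90− libraries and 218, 211 and 254 RPM in the CD90+ libraries. All CD90+ libraries lay far above all CD90− libraries, and the fold change of means was 15.7 (log2 fold change 3.89, adjusted p = 0.00043 by limma).

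CDH3 encodes P-cadherin, found in basal layers of epithelia and in placenta. It measured 42.4, 48.7 and 54.8 RPM in CD90− and 247, 226 and 258 RPM in CD90+. The lines did not overlap, and means of 48.6 ± 6.22 and 243 ± 16.5 RPM (SD, n = 3 each) gave a 5.01-fold rise (log2 fold change 2.31, standard error 0.11, limma adjusted p = 0.0011).

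CDH2 encodes N-cadherin, the cadherin of neural and mesenchymal cells. In CD90− its libraries held 143, 125 and 133 RPM, and in CD90+ they held 108, 103 and 109 RPM. Every CD90+ library was under every CD90− library, but the log2 fold change of -0.32 (95% interval -0.48 to -0.17) was smaller than 1.5-fold, so CDH2 was not called. Leaving out 1 library moved its adjusted p as high as 0.092 (limma). CDH4 and CDH15, the R- and M-cadherins, were at the floor in both lines.

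Ratios between type I cadherins restate these changes within each library. Per library, the ratio of CDH1 to CDH2 was 0.0946, 0.107 and 0.123 in CD90− and 2.01, 2.05 and 2.33 in CD90+. The ratio of CDH1 to CDH3 was 0.320, 0.275 and 0.299 in CD90− and 0.881, 0.934 and 0.984 in CD90+. Both ratios were higher in all 3 CD90+ libraries, with log2 differences of 4.30 and 1.65. The two-sided exact permutation p was 0.1 for each, the smallest that 3 against 3 libraries can give, and 0.1 after adjustment over the 2 ratios, so the test could not pass a threshold of 0.05 and the ratios are a description.

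Type II cadherins, the larger classical group with members in endothelium, mesenchyme and brain, moved both ways: 1 rose, 4 fell, and 8 were not called, of which 6 were at the floor in both lines (CDH7, CDH10, CDH12, CDH19, CDH20 and CDH22). Of all genes, 7.59% rose and 7.49% fell, and counts over groups this small are a description. CDH6, or K-cadherin, is expressed in the developing kidney. It stood at 4.36, 5.99 and 5.43 RPM in CD90− and at 37.0, 35.7 and 39.7 RPM in CD90+. There was no overlap, and the fold of means was 7.12 (log2 fold change 2.63, standard error 0.12, limma adjusted p = 0.00083).

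CDH5 encodes VE-cadherin, which joins endothelial cells. The CD90− libraries had 13.4, 16.8 and 19.7 RPM, and the CD90+ libraries 0.429, 0.233 and 0.217 RPM. Summed over libraries these were 501 and 8 reads, with 4, 2 and 2 reads in CD90+, so that a pair of its libraries lay under the floor. The ratio of depth-scaled summed reads was 56.3, with an exact 95% counting interval of 28.3 to 131 (log2 fold change -3.76, standard error 0.16, limma adjusted p = 0.00080).

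CDH11 encodes OB-cadherin, typical of osteoblasts and fibroblasts. Its CD90− levels of 9.76, 19.9 and 15.04 RPM faced 0.107, 0 and 0 RPM in CD90+, that is 444 reads against 1. CDH11 was close to absent from every CD90+ library. The ratio of depth-scaled summed reads was 399, with an exact 95% counting interval of 71.2 to 15787, and the log2 fold change was -3.89 (limma, adjusted p = 0.0022).

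CDH9 and CDH18 are cadherins of the nervous system. CDH9 measured 6.82, 7.81 and 12.4 RPM in CD90− and 0.107, 0 and 0 RPM in CD90+, with 273 and 1 summed reads and a ratio of 245 (interval 43.6 to 9720.3). CDH18 measured 1.90, 3.75 and 2.52 RPM in CD90− and 0, 0.116 and 0.109 RPM in CD90+, with 81 and 2 summed reads and a ratio of 36.4 (interval 9.75 to 305). Neither gene overlapped between the lines, and the limma adjusted p was 0.0024 for CDH9 and 0.0085 for CDH18. These intervals, like the one for CDH11, cover counting error only. CDH24 had means of 7.74 and 6.56 RPM with overlapping libraries (log2 fold change -0.19, 95% interval -0.58 to 0.19), and CDH8 had 9 reads in CD90− and none in CD90+ without being called (adjusted p = 0.104). Of the 5 remaining cadherins, CDH13, CDH16, CDH17 and CDH23 were at the floor in both lines and CDH26 was just above it.

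**Figure D2:**
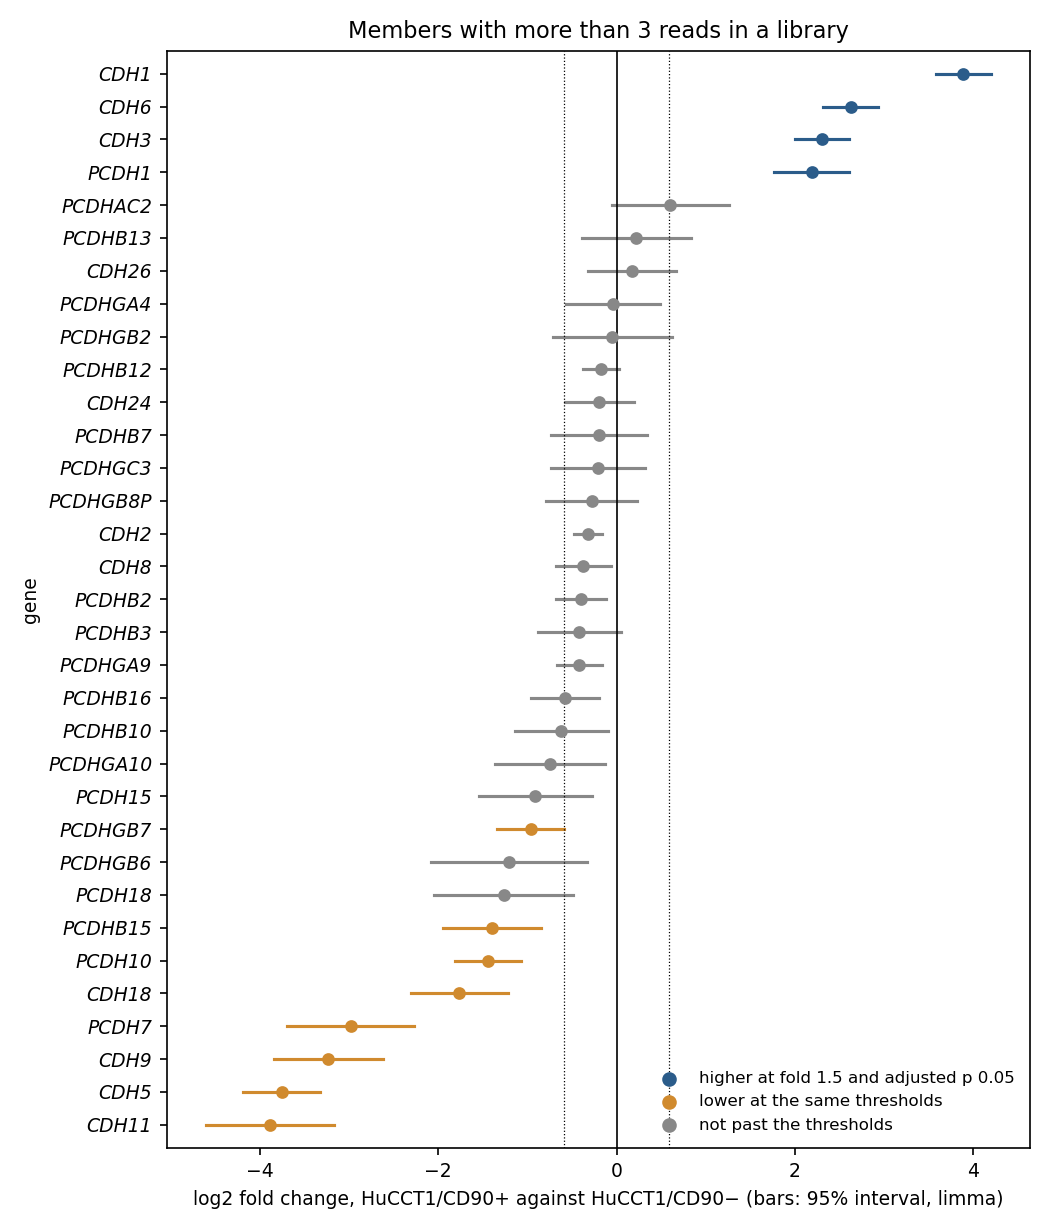
Change of the 33 members with more than 3 reads in a library. The horizontal axis is the log2 fold change of RPM + 1, CD90+ minus CD90−, the bars are 95% limma intervals and dotted lines mark 1.5-fold. CDH1 (3.89), CDH6 (2.63), CDH3 (2.31) and PCDH1 (2.19) lie furthest to the right, and CDH11 (-3.89) and CDH5 (-3.76) furthest to the left.

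The 13 non-clustered protocadherins, single genes with their own cytoplasmic tails, gave 1 higher and 2 lower members, where 7.59% and 7.49% of all genes were called, with 8 at the floor in both lines. PCDH1, a protocadherin of airway and other epithelia, had 13.1, 11.9 and 9.31 RPM in CD90− and 47.9, 58.5 and 59.8 RPM in CD90+. The lowest CD90+ library was well above the highest CD90− library, and the mean rose 4.85-fold (log2 fold change 2.19, standard error 0.16, limma adjusted p = 0.0025).

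PCDH7, or NF-protocadherin, was the most abundant protocadherin of CD90−. Its levels were 15.7, 24.3 and 16.7 RPM there and 0.858, 1.98 and 1.74 RPM in CD90+. The lines did not overlap, and the mean was 12.4-fold lower in CD90+ (log2 fold change -2.98, standard error 0.27, limma adjusted p = 0.0044).

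PCDH10, or OL-protocadherin, is expressed mainly in brain. It held 2.46, 1.61 and 2.04 RPM in CD90− and 0.107, 0.233 and 0 RPM in CD90+, or 62 against 3 reads (ratio 18.6, counting interval 6.06 to 92.5). The call rested on the fit, with a limma adjusted p of 0.0055 without and of 0.050, just over the threshold, with the replicate block. PCDH18 had 6, 18 and 21 reads in CD90− and none in CD90+, at least 4.32-fold lower against a floor of 3 reads per library, but its adjusted p was 0.051 by limma and 7.0e-05 by DESeq2 on the recovered reads. PCDH15, a protein of the hair cell tip link, did not overlap, with 0.948, 2.03 and 2.04 RPM against 0.214, 0.349 and 0.651 RPM, and was not called by limma (adjusted p = 0.068), whereas DESeq2 gave an adjusted p of 0.023. PCDH11X had 2, 3 and 2 reads in CD90+ and none in CD90−, which is within the floor, and its near-identical copy PCDH11Y could share such reads.

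The clustered protocadherins of chromosome 5 were weakly expressed in both lines. Of 54 genes, 37 were at the floor in both lines and 17 of these had no read; none rose and 2 fell by limma, where 7.59% of all genes rose and 7.49% fell. At the study's thresholds there were 0 higher and 5 lower, where 10.1% of all genes were higher and 9.98% lower. On the recovered reads edgeR called 0 higher and 3 lower (17.5% and 17.3% of the genes it tested), and DESeq2 called 0 and 4 (15.1% and 14.3%). These counts are not out of 54. Of the clustered genes edgeR tested only PCDHB2, PCDHB10, PCDHB13, PCDHB15, PCDHGB6 and PCDHGC3, and DESeq2 gave many no adjusted p. Both genes that fell by limma were weakly expressed. PCDHB15 had 2.56, 2.68 and 1.84 RPM in CD90− and 0.536, 0 and 0.326 RPM in CD90+ (log2 fold change -1.40, limma adjusted p = 0.016, or 0.074 with the replicate block).

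PCDHGB7 had 1.42, 1.28 and 0.970 RPM in CD90− and 0.107, 0 and 0.326 RPM in CD90+, or 37 against 4 reads. Its log2 fold change was -0.96 (limma adjusted p = 0.016, or 0.092 with the block). Both calls were lost when certain single libraries were left out. For PCDHB15 the adjusted p became 0.058 without CD90− replicate 1, 0.060 without CD90− replicate 2 and 0.063 without CD90+ replicate 3. For PCDHGB7 it became 0.053 without CD90− replicate 1, 0.061 without CD90− replicate 2 and 0.063 without CD90+ replicate 1.

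Other clustered genes were lower without being called, and differences between members were not tested. PCDHGB6, whose promoter stretch differs from that of PCDHGB7 at few letters, measured 2.94, 6.21 and 5.24 RPM in CD90− and 1.39, 2.21 and 0.868 RPM in CD90+. It was lower in all CD90+ libraries but not called by limma (log2 fold change -1.21, adjusted p = 0.076), whereas edgeR on the recovered reads gave an adjusted p of 0.0012. PCDHGC3, one of the C-type gamma genes that most cells using the cluster express, measured 6.54, 8.35 and 5.43 RPM and then 5.79, 6.75 and 4.56 RPM. These ranges overlapped, with a log2 fold change of -0.21 (95% interval -0.74 to 0.32). PCDHB2 and PCDHB10, which carry the same promoter word as PCDHB15, had log2 fold changes of -0.40 and -0.62 and were lower in all CD90+ libraries but not called by limma (adjusted p = 0.072 and 0.11). For PCDHB10 edgeR gave an adjusted p of 0.046 (log2 fold change -1.13) and DESeq2 one of 0.17. PCDHB13, which also carries the word, was not lower, with means of 0.746 and 1.00 RPM and overlapping libraries (log2 fold change 0.22, limma adjusted p = 0.61). In the alpha cluster, 11 of 13 genes had no read, and only PCDHAC2 exceeded the floor, at 0.190, 0.642 and 0.291 RPM and then 0.536, 1.28 and 1.52 RPM (adjusted p = 0.19). Summed over the cluster, the beta genes had 12.2 ± 1.31 RPM in CD90− and 6.70 ± 0.172 RPM in CD90+, and the gamma genes 16.0 ± 3.48 and 8.62 ± 1.37 RPM (SD, n = 3 each). Many gamma amplicons could amplify shared exons or near-identical copies, and amplicon positions were not used here, so single cluster genes are uncertain.

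**Figure D3:**
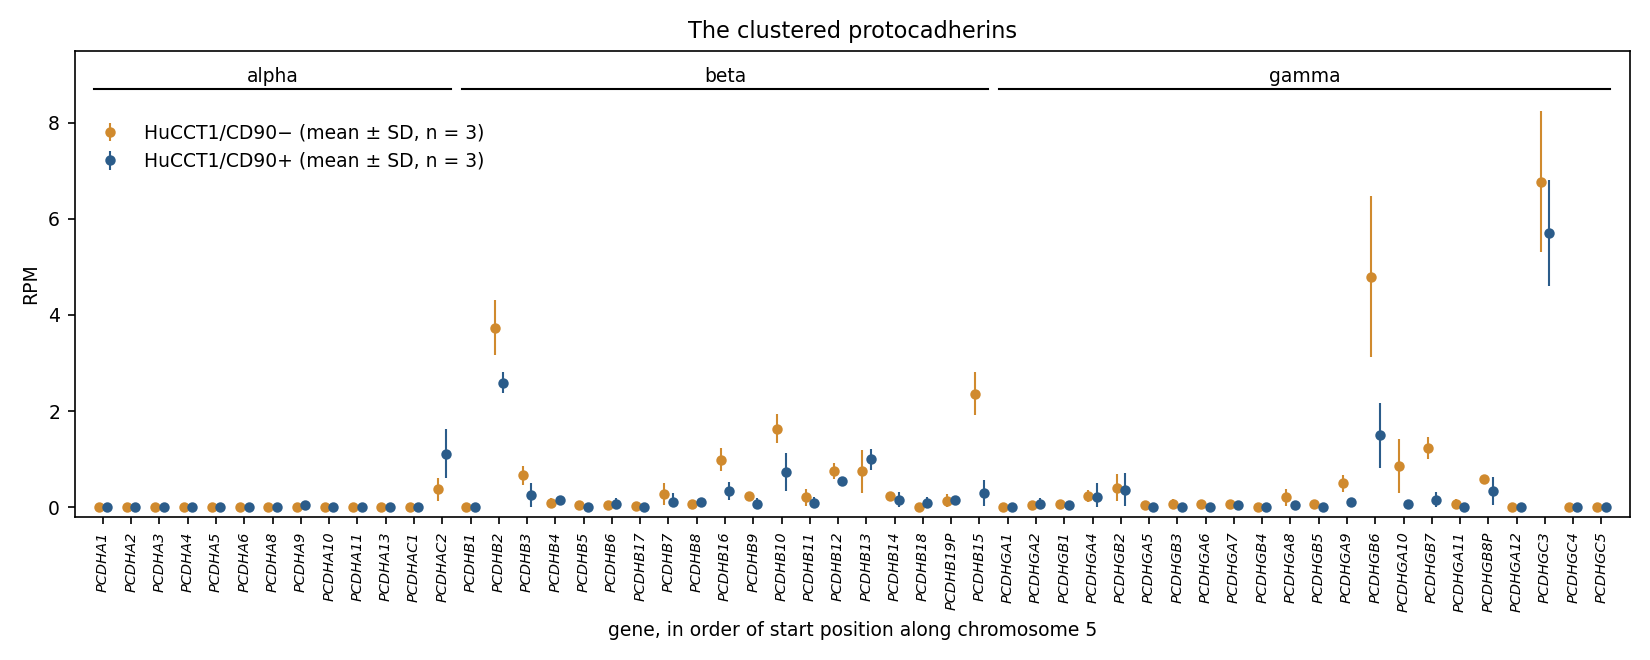
The 54 clustered protocadherins in gene order along chromosome 5. The vertical axis is RPM, points are the mean of 3 libraries of a line and bars the SD, with lower bars ending at 0. Most genes lie at or near 0 in both lines, and PCDHGC3 (6.77 and 5.70 RPM), PCDHGB6 (4.79 and 1.49 RPM) and PCDHB2 (3.73 and 2.59 RPM) stand above the rest, each with CD90− first.

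The order of levels within the family differed between the lines. Amplicons can differ in efficiency, so an order between genes in RPM is approximate. In CD90− the mean fell from CDH2 (134 RPM) over CDH3 (48.6 RPM) to PCDH7 (18.9 RPM), CDH5 (16.6 RPM), CDH11 (14.9 RPM), CDH1 (14.4 RPM) and PCDH1 (11.4 RPM). The libraries of PCDH7, CDH5, CDH11 and CDH1 overlapped, so these neighbours have no clear order. In CD90+ the order was CDH3 (243 RPM), CDH1 (227 RPM), CDH2 (107 RPM), PCDH1 (55.4 RPM) and CDH6 (37.5 RPM), followed at a distance by CDH24 (6.56 RPM). CDH3 and CDH1 overlapped there.

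Over all members, the RPM sum was 303, 327 and 326 in the CD90− libraries and 683, 661 and 746 in the CD90+ libraries. The sum was higher in each CD90+ library, and the rise of CDH1 and CDH3 together exceeded that of the sum. CDH2 held 42.1% ± 4.62 of the members' RPM in CD90− and 15.3% ± 0.643 in CD90+. CDH1 went from 4.53% to 32.6% and CDH3 from 15.2% to 35.0%. The 8 lower members together went from 67.8 ± 12.4 RPM, or 21.2% of the sum, to 2.51 ± 0.236 RPM, or 0.360%. These sums rest on members selected by their change and are given as a description.

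**Figure D4:**
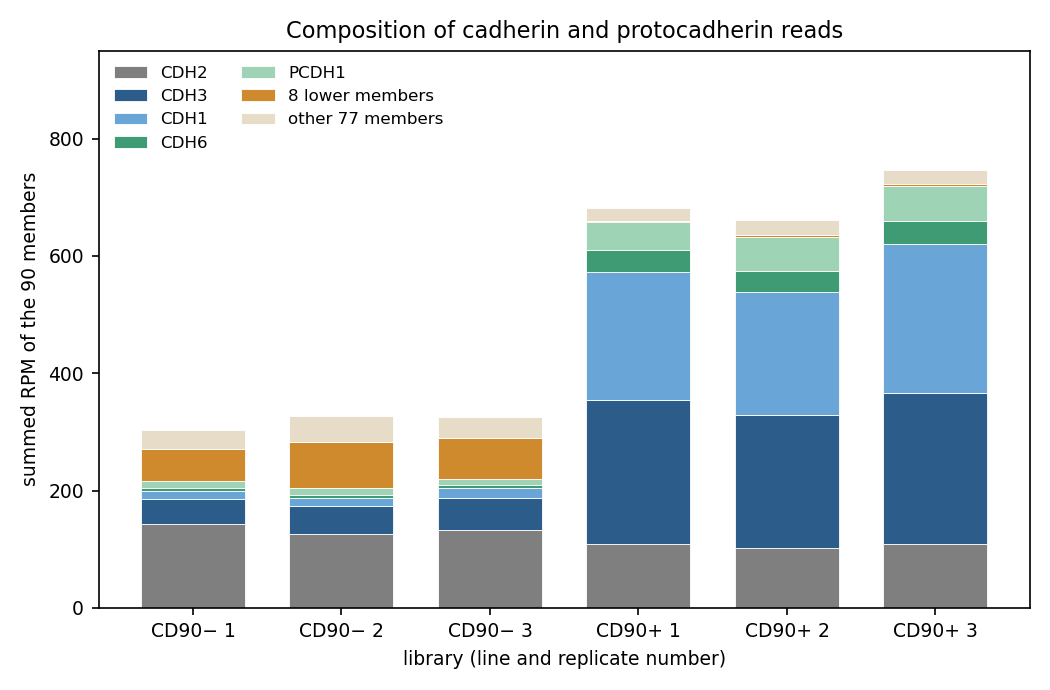
Make-up of the summed RPM of the 90 members in each library. The vertical axis is RPM, each bar is 1 library, and the layers are CDH2, CDH3, CDH1, CDH6, PCDH1, the 8 lower members and the other 77 members. The CD90+ bars reach 661 to 746 RPM and consist mostly of CDH3 and CDH1, whereas CDH2 is the thickest layer of the CD90− bars, which reach 303 to 327 RPM.

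Many members share a few chromosomes, and members of opposite change were found on the same chromosome. Positions are from GENCODE on GRCh38. Chromosome 16 carries 8 members, of which 2 rose and 2 fell. Of all genes 7.59% rose and 7.49% fell, but 8 members are too few for a comparison of shares. CDH11 (chr16:64943753-65126112), CDH5 (chr16:66366622-66404786), CDH3 (chr16:68636189-68722616) and CDH1 (chr16:68737225-68835548) lie there in this order, with CDH16, at the floor in both lines, between CDH5 and CDH3. The gaps were 1.24 Mb between CDH11 and CDH5, 2.23 Mb between CDH5 and CDH3, and 14.6 kb between CDH3 and CDH1. The first 2 named genes fell and the last 2 rose. Chromosome 5 carries 61 members, with 2 higher and 4 lower, where 7.59% and 7.49% of all genes were called. On its short arm CDH18 (chr5:19472951-20575873) and CDH9 (chr5:26880600-27121150) fell, and CDH6 (chr5:31193750-31329146), 4.07 Mb beyond CDH9, rose. PCDH7 (chr4:30720415-31146805) and PCDH10 (chr4:133149315-133208606) lie on chromosome 4.

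The 50 closest genes measured at 10 RPM or more on average were used to see whether whole stretches of chromosome had moved. Their median log2 fold change was -0.35 around CDH1 and -0.34 around CDH3, CDH5 and CDH11. It was -0.085 around CDH6 and CDH9, 0.23 around PCDH7 and 0.31 around PCDH10. Neighbouring members on a chromosome draw on overlapping sets of nearest genes, so their like values are not separate observations. With the neighbours' median subtracted from each gene, the counts were again 4 higher and 8 lower members, against 6.32% and 6.56% of all genes.

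Partner genes were examined next, since classical cadherins need catenins to hold a junction. Over 50 genes in 5 lists, 4 were higher and 6 lower, where 7.59% and 7.49% of all genes were. Of 10 catenins and related armadillo genes, 2 rose (ARVCF and PKP4), 2 fell (CTNNB1 and CTNND1) and 3 had no read (CTNNA2, CTNNA3 and CTNND2), with a median log2 fold change of 0.20. The PKP4 call was lost with the block (adjusted p = 0.087, limma).

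CTNND1 encodes p120 catenin, which keeps classical cadherins at the cell surface. It measured 114, 79.3 and 85.9 RPM in CD90− and 2.36, 2.10 and 3.69 RPM in CD90+. The lines were far apart, with a mean 34.3-fold lower in CD90+ (log2 fold change -4.67, standard error 0.23, limma adjusted p = 0.0011). The value comes from 1 amplicon, whose place among the alternatively spliced exons of CTNND1 was not used here.

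CTNNB1 encodes beta-catenin, which links the cadherin tail to alpha-catenin. It had 998, 834 and 954 RPM in CD90− and 485, 419 and 462 RPM in CD90+. No libraries overlapped, and the log2 fold change was -1.03 (standard error 0.095, limma adjusted p = 0.0048). CTNNA1, or alpha-catenin, had 600 ± 67.9 RPM in CD90− and 809 ± 78.1 RPM in CD90+ and was not called (log2 fold change 0.43, adjusted p = 0.073). For JUP, or plakoglobin, the means were 303 and 601 RPM and the adjusted p was 0.051 by limma, 8.1e-05 by edgeR and 2.8e-07 by DESeq2. ARVCF, a relative of p120 catenin, rose, with means of 0.301 and 2.89 RPM (log2 fold change 1.58, limma adjusted p = 0.0073).

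Among the nectins and afadin, adhesion partners of the adherens junction, NECTIN4 rose, with means of 0.738 and 10.1 RPM (log2 fold change 2.63, adjusted p = 0.0071) and NECTIN3 fell, with means of 46.2 and 15.01 RPM (log2 fold change -1.56, adjusted p = 0.011, or 0.081 with the block). The median of these 5 genes was 0.37. Of 17 atypical members of the cadherin superfamily, limma called none higher and 2 lower, where it called 7.59% and 7.49% of all genes. In both lines 7 of the 17 were at the floor, and the median was 0. At an unadjusted p of 0.05 there were 1 higher and 3 lower. On the recovered reads edgeR called 1 and 3 (17.5% and 17.3% of the genes it tested), and DESeq2 also called 1 and 3 (15.1% and 14.3%). Both that fell are CELSR genes of planar cell polarity, with means of 15.7 and 7.02 RPM for CELSR2 (adjusted p = 0.026) and of 80.9 and 38.8 RPM for CELSR3 (adjusted p = 0.017). The CELSR2 call was lost with the block (0.082) and without CD90− replicate 1, 2 or 3 or CD90+ replicate 2 (0.078 to 0.087). FAT1, with means of 43.4 and 90.6 RPM, was not called in the main test (log2 fold change 1.04, adjusted p = 0.057) but was called higher with the block (adjusted p = 0.013). The CELSR3 call was lost without CD90− replicate 3 or CD90+ replicate 1 or 3 (0.052 to 0.068).

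Regulators of the protocadherin clusters showed no called change. CTCF, which loops cluster promoters to their enhancer, cohesin and related factors made up 10 genes with log2 fold changes from -0.41 (NIPBL) to 0.38 (STAG2) and a median of -0.050. By limma 1 of them was lower at an unadjusted p of 0.05, and edgeR and DESeq2 called 0. Of 8 genes of cadherin shedding and turnover, CBLL1 and NCSTN were called. CBLL1, the ubiquitin ligase Hakai that removes E-cadherin, rose, with means of 42.4 and 68.0 RPM (limma adjusted p = 0.010, and 0.057 under the block). Its log2 fold change of 0.67 was near the median of its chromosomal neighbours, 0.63, so its rise was hardly more than that of its surroundings. NCSTN, a subunit of gamma-secretase, fell, with means of 378 and 183 RPM (log2 fold change -1.04, adjusted p = 0.0022). The other 6 were not called, and the median was -0.085.

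Markers of cell types were read beside these results because CDH5 and CDH11 are typical of other cells. In bulk libraries, fewer cells of a type and less RNA per cell cannot be told apart. Biliary epithelial markers were abundant in both lines, at a sum of 8199 to 9306 RPM in CD90− and 10939 to 11677 RPM in CD90+, and 2 of 6 (KRT18 and EPCAM) were higher. Endothelial markers summed to 4.74 to 7.70 RPM in CD90− and 1.18 to 1.98 RPM in CD90+, and 1 of 6 (TIE1) was lower. In the CD90− libraries, in which CDH5 had 13.4 to 19.7 RPM, TIE1 had 3.22, 5.56 and 3.49 RPM and PECAM1 1.14, 1.93 and 3.49 RPM, whereas VWF, KDR and CLDN5 had no read. PECAM1 was lower in every CD90+ library (0.107, 0.932 and 0.543 RPM), with adjusted p-values of 0.14 by limma and 0.0053 by edgeR. With the replicate block the adjusted p of TIE1 was 0.064 (limma). In CD90+, VWF had 1, 3 and 4 reads, and TEK averaged 0.262 RPM in CD90− and 0.364 RPM in CD90+; neither was called. The part of endothelial markers in the fall of CDH5 was not tested. Fibroblast markers summed to 41.8 to 65.3 RPM and 20.4 to 24.7 RPM, and 5 of 7 (COL1A2, COL3A1, PDGFRB, DCN and LUM) were lower, or 2 of 7 (PDGFRB and LUM) with the replicate block. Of all genes 7.49% were lower, or 4.86% with the block. COL1A1 did not fall, with means of 13.5 and 14.2 RPM (log2 fold change 0.078), and PDGFRA was not called. COL1A2 and COL3A1 had only 16 and 26 summed reads in CD90− and none in CD90+. The part of fibroblast markers in the fall of CDH11 was not tested.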

How the data were processed

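RNA of 6 HuCCT1 libraries was measured on the Ion AmpliSeq transcriptome panel. The authors counted reads with the ampliSeqRNA plugin of Torrent Suite and deposited 1 table of RPM values for 20811 genes; the tool that scaled reads to RPM is not given in the sources used here. The submitters' processing notes name the Transcriptome Analysis Console and hg19. The table holds no coordinates. Positions came from GENCODE on GRCh38, matched by symbol for 18624 genes, and promoters from RefSeq on GRCh38.p14. No column was left unused.

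Whole reads were recovered from the decimals of the deposited RPM for 100% of values, each within 0.1 read of a whole number, and gave the depth. Intervals and the floor of 3 reads cover counting error only. No 2 libraries agreed within counting noise (chi-square per degree of freedom 9.66 to 26.6 within a line).

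The main test was limma 3.58.1 in R 4.3.3 (lmFit and eBayes) on log2(RPM + 1) over all genes, with no filter and no block. Fold changes are on that scale, which understates changes of low genes. Adjusted p-values are Benjamini-Hochberg over all genes. As count-based alternatives, edgeR 4.0.16 (quasi-likelihood) called 4200 of 12070 genes on the recovered reads and DESeq2 1.42.0 called 4236 of 14399. Deviations of same-numbered libraries from their line's mean correlated at 0.21, 0.32 and 0.18, and those of differently numbered libraries at -0.29 to 0.07, so the replicate numbers were taken as pairs and the block was run as an alternative. Scripts were tested on simulated counts.

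Values per library were to be given for called members, members with a mean of at least 10 RPM, CDH1 and CDH2, and, of the partner lists, for called genes with a fold change of at least 2 and for CTNNB1, CTNNA1 and CTNND1. Of these partner genes, only CTNND1 and CTNNB1 are given per library here, and the rest as means. Other genes were named after their values were seen. The members, the lists and the promoter letters were chosen with earlier results of these data known. Some genes of the marker lists are not reported here.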

Additional observations from a re-analysis of the deposited data

How the results depend on the processing

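Settings of scaling, offset, filter, model and fold, the replicate block, the neighbours' subtraction and the omission of each library were tried. Members called higher numbered 4 or 5 throughout. Members called lower were 8 in the main test. An offset of 5 RPM, where low genes no longer reach 1.5-fold, gave 5. Median centring, which also shifts genes without reads, gave 14, and the replicate block gave 5. Leaving out 1 library, with 4.36% to 5.96% of all genes lower, gave 6 to 8 lower members. They were 10 with an offset of 0.1 RPM (8.09% of all genes lower), with quantile normalization (7.51%) or with a 1 RPM filter (16.5% of the 12062 genes kept), 12 with DESeq2 (14.3% of 14399 genes), and 7 to 9 in the other settings. The cause of the change under the block was not tested. Partner genes called higher were 4 in the main test, 2 when a 2-fold change was asked for, and 3 to 6 in the other settings; those called lower were 6, and 4 to 7 in the other settings.

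CDH1, CDH3, CDH6, PCDH1, CDH5, CDH9, CDH11, CDH18 and PCDH7, 9 members in all, were called in each of these settings. PCDH10, PCDHB15 and PCDHGB7 were not called with an offset of 5 RPM or with the block, and PCDHB15 also not with an offset of 0.1 RPM (adjusted p = 0.069, limma). PCDHGB7 also missed a 2-fold minimum (log2 fold change -0.96) and was not tested by edgeR or under the 1 RPM filter. CELSR2 was also not called after the neighbours' subtraction (adjusted p = 0.051), nor ARVCF with an offset of 5 RPM. Beside the calls given with the report's values, the block ended no call of a named member. No named gene changed direction. Among genes averaging 1 RPM or more, the median log2 fold change lay within 0.1 of 0 under each scaling. At 3 reads or fewer, depth limits the 57 members at the floor. None of them was called in the main test, although PCDH11X had a limma adjusted p of 0.015 below 1.5-fold.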

Other observations

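Blood cell markers and hepatocyte markers were read as well. Blood cell markers summed to 46.5 to 56.1 RPM in CD90− and 84.7 to 101.6 RPM in CD90+, and 2 of 4 were higher: CD68, a lysosomal protein of macrophages that other cells also express, and HBB, a haemoglobin chain. CD68 made up most of these sums, with means of 50.8 and 92.2 RPM, whereas HBB had 3 summed reads in CD90− and 26 in CD90+. PTPRC, the pan-leukocyte surface phosphatase, and CD3E were at the floor in both lines. Hepatocyte markers summed to 1.75 to 4.28 RPM in CD90− and up to 0.465 RPM in CD90+. The apolipoprotein gene APOA1 was lower, and the other 3, ALB, TTR and CYP3A4, were at the floor in both lines. With the replicate block, 2 of 7 fibroblast markers, 0 of 6 endothelial markers, 2 of 4 blood cell markers and 1 of 4 hepatocyte markers were called by limma.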
